A study of Mus musculus with 16 samples.

Results

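The integrated stress response genes examined here were 10 mouse genes, Atf4, Atf5, Ddit3, Trib3, Asns, Chac1, Ppp1r15a, Sesn2, Slc7a5 and Slc3a2, chosen by symbol among the 23970 gene symbols of an RNA-seq table of quadriceps muscle. All 10 were found, and 8 of them passed the filter of a mean of at least 0.5 FPKM (fragments per transcript length and sequencing depth) that left 11256 genes for testing. Trib3 and Slc7a5 had means under the filter and were fitted separately, without it. The libraries came from male C57BL/6NTac mice aged 16 weeks that had eaten a control diet (CON, 10% of energy from fat) or a high-fat diet (HFD, 60% of energy from fat) for 10 weeks. The groups named pre were sampled at rest, and those named post were sampled 3 h after they had run to exhaustion on a treadmill once, which gave the groups CON-pre and CON-post and, for the high-fat diet, HFD-pre and HFD-post, each with 4 libraries. Mice of all 4 groups had been acclimatised to the treadmill, and by the methods of the study the length of the fast was matched between pre- and post-exercise mice. The exercised mice were fasted for 3 h before the run and received no food between the run and sampling. Pre- and post-exercise libraries came from different mice, so each comparison was between groups and not within an animal.

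The integrated stress response is a signalling network in which kinases that sense amino acid shortage, unfolded protein, haem shortage, viral RNA or mitochondrial stress phosphorylate the translation factor eIF2. Phosphorylated eIF2 lowers general protein synthesis while allowing translation of a few mRNAs with upstream open reading frames, among them that of the transcription factor ATF4. ATF4 and its partners then induce genes for amino acid synthesis and uptake, redox control and feedback on the pathway, several of which are among the 10 genes. Because ATF4 is controlled largely at translation, an mRNA level does not give the amount of the protein.

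ATF4 is known to act on several targets through a short promoter element, and the stretches below are shown because they hold its letters or those of a related element. A match is a description of sequence and was not tested as a binding site. RefSeq promoter windows of 300 bases (250 before and 50 after an annotated start, GRCm38.p6) were found for 9 of the 10 genes, all but Slc7a5. The C/EBP-ATF response element, searched as TGATGNAA on both strands, was present in the windows of 3 members, Asns, Trib3 and Chac1, and in 3.97% of all 32851 windows. The palindromic cAMP response element TGACGTCA was present in the Ppp1r15a window and in 1.79% of all windows. Atf3, which is not one of the 10 genes but is described below, also held TGATGNAA, while the window of Slc38a2, the other gene outside the 10 that was searched, held neither element. Stretches are given 5′ to 3′ in the direction of transcription, with the matched letters in capitals. The Asns stretch lies on the minus strand at chr6:7693210-7693329, with the match at positions -23 to -16 counted from the start. The Chac1 stretch lies on the plus strand at chr2:119350992-119351111, with the match on the reverse strand at positions -193 to -186. The Trib3 stretch, minus strand at chr2:152344028-152344057, has its reverse-strand match at positions 15 to 22 after the start. The Ppp1r15a stretch, minus strand at chr7:45526269-45526388, has its match at positions -12 to -5. The Atf3 stretch, minus strand at chr1:191183334-191183453, has its reverse-strand match at positions -110 to -103.
Asns: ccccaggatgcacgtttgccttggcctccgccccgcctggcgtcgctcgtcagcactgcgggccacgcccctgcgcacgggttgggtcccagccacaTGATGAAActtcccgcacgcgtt
Trib3: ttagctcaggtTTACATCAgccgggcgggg
Chac1: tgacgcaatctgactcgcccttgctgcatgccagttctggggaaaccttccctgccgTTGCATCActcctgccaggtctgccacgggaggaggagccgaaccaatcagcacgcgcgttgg
Ppp1r15a: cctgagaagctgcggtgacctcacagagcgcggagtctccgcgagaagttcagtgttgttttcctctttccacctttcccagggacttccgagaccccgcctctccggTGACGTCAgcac
Atf3: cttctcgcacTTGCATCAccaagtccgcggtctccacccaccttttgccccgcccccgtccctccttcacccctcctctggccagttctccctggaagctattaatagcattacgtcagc
The windows of Atf4, Atf5, Ddit3, Sesn2 and Slc3a2 held neither set of letters, which says only that these letters were not in those 300 bases.

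The libraries were muscle by their markers. The 8 skeletal muscle fibre genes checked summed to between 50283 and 72068 FPKM in each library, and none was at 0 in any. Their sum was 65270 to 72068 FPKM in CON-pre and 56400 to 62914 FPKM in HFD-pre, which did not overlap, while CON-post libraries summed to 57263 to 66479 FPKM and HFD-post libraries to 50283 to 61898 FPKM. Singly, 6 of the 8 were lower in HFD-pre than in CON-pre, and Myh1 (log2 fold change 0.13) and Myh2 (0.41) were higher. In that comparison limma called 0 of the 8, beside 0.346% of all genes. Other cell types were present in small amounts, with summed levels of 321 to 659 FPKM for 7 adipocyte genes, 259 to 903 FPKM for 6 blood cell genes, 43.1 to 64.8 FPKM for 5 endothelial genes and 15.7 to 44.5 FPKM for 6 macrophage genes. Of these markers, limma called Cfd (lower) and Lep (higher) in both diet comparisons and the endothelial Pecam1 (higher) in HFD-post against HFD-pre (log2 fold change 0.39, adjusted p = 0.0347) and for exercise averaged over both diets (0.36, adjusted p = 0.00141). In the contrasts that called Pecam1 the 5 endothelial genes did not move together, with 2 higher and 3 lower in HFD-post against HFD-pre (median log2 fold change -0.015) and 3 higher and 2 lower in the averaged exercise contrast (median 0.023). All 5 were higher in CON-post than in CON-pre (median 0.10) and in HFD-pre than in CON-pre (median 0.17). In each of these, 0 were called by limma and 2 had an unadjusted p under 0.05, beside 11.1% and 8.25% of all genes. All 7 adipocyte genes were at higher values in HFD-post than in HFD-pre (median 0.47, 0.32 to 0.73) and in the averaged exercise contrast (median 0.29, 0.17 to 0.47), with 0 called by limma and 2 at an unadjusted p under 0.05 in each. In whole muscle, fewer cells of a type and less RNA per cell cannot be told apart. Relative depth, estimated from the step that 1 read makes in low FPKM values, ranged from 0.705 to 1.12 of that of CON-pre replicate 1, and absolute read counts were not used here.

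The 10 genes covered a wide range of levels in muscle, and per transcript length Atf4 was the most abundant. Atf4 averaged 88.6 FPKM over the 16 libraries, above 96.7% of the genes tested. Chac1 followed at 49.4 FPKM and Atf5 at 17.8 FPKM, and in all 16 libraries Atf4 was above Chac1 and Chac1 above Atf5. Ppp1r15a averaged 11.7 FPKM, below Atf5 in all 16 libraries. Slc3a2 and Ddit3 averaged 8.73 and 8.59 FPKM and could not be ordered, since Slc3a2 was the higher in 10 of 16 libraries. The remaining members were near the limit of what was measured. Per length, Asns averaged 0.778 FPKM and Sesn2 0.607 FPKM, while Trib3 and Slc7a5 both averaged 0.451 FPKM, with Trib3 the higher in 9 of 16 libraries. None of the 10 genes was listed at 0 in any library.

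**Figure D1:**
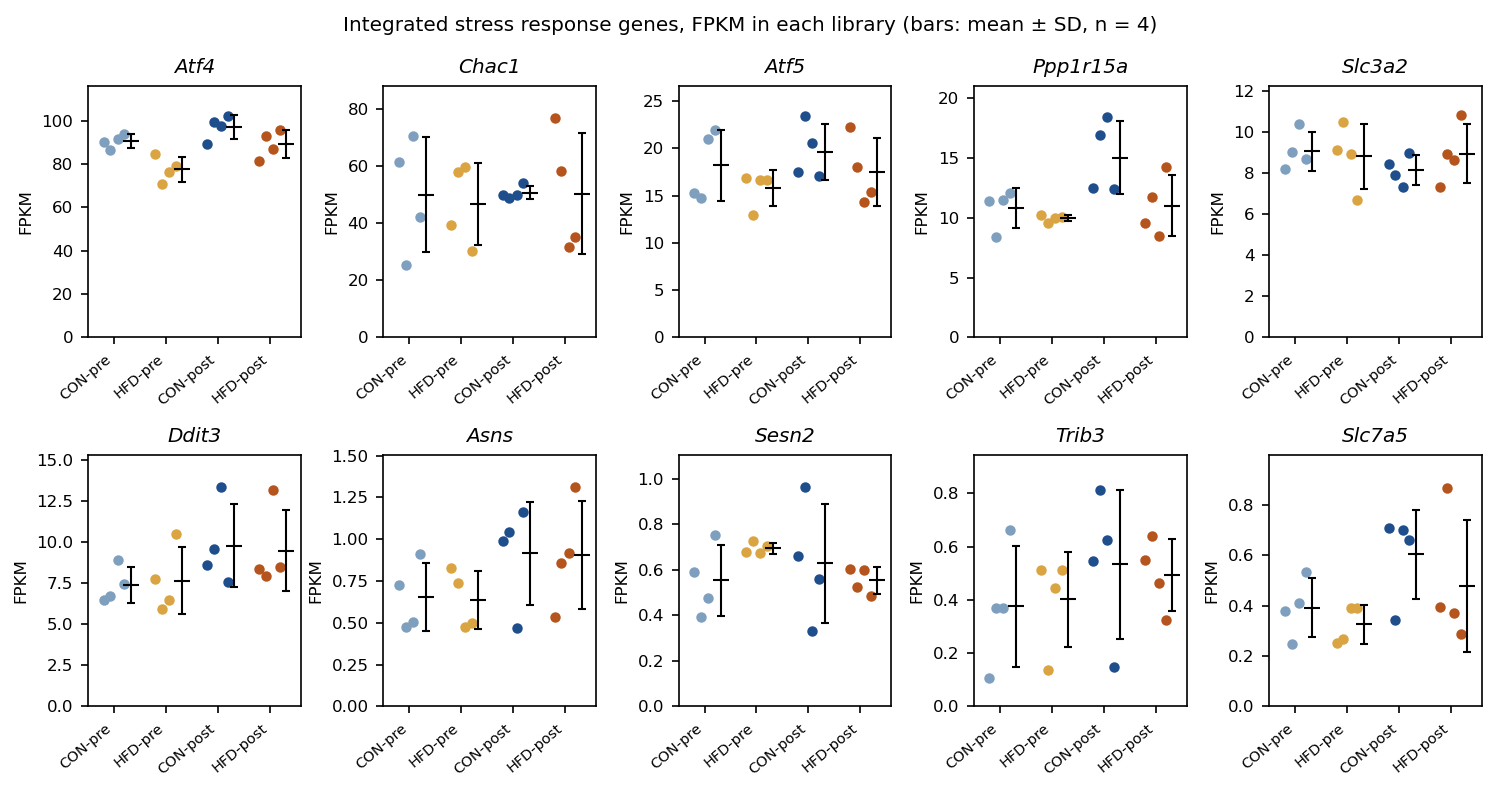
FPKM of each of the 10 integrated stress response genes (panels, vertical axes starting at 0) in the 4 libraries of each group, with black bars for mean ± SD. Atf4 was lowest in HFD-pre (70.7 to 84.4), Ppp1r15a reached its highest values in CON-post (12.4 to 18.4), and Chac1 spread from 25.5 to 70.4 in CON-pre but only from 48.9 to 53.9 in CON-post.

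None of the 8 tested members passed an adjusted p under 0.05 in any comparison. limma with a mean-variance trend, fitted on log2(FPKM + 0.5) over all 11256 genes and all 16 libraries, with Benjamini-Hochberg adjustment over all genes, gave 0 members in each of the 7 contrasts. The same fit called 0.346% of all genes in HFD-pre against CON-pre, 0.151% in HFD-post against CON-post, 1.11% in CON-post against CON-pre and 0.542% in HFD-post against HFD-pre. It called 3.86% for exercise averaged over both diets, 0.959% for diet averaged over both exercise states and 0% for the interaction of diet and exercise. With so small a share called, no call among 8 genes is close to that background. At an unadjusted p under 0.05, 1 of the 8 members was counted in each of the 4 comparisons of 2 groups. The share of all genes counted this way was 8.25% in HFD-pre against CON-pre, 6.29% in HFD-post against CON-post, 11.1% in CON-post against CON-pre and 11.7% in HFD-post against HFD-pre. Averaged over diets, 3 of 8 members had an unadjusted p under 0.05 for exercise (18.5% of all genes), averaged over exercise states 2 of 8 had one for diet (10.4%), and 0 of 8 had one for the interaction (3.16%). The comparisons share libraries, so that HFD-pre and CON-post, for example, each enter more than 1 of them.

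Most member values pointed up after exercise, as differences that did not pass the test. In CON-post against CON-pre, 7 of 8 members were higher, with a median log2 fold change of 0.12 beside -0.0058 over all genes tested. In HFD-post against HFD-pre 7 of 8 were higher, with a median of 0.12 beside 0.035 over all genes. With diet, 6 of 8 members were lower in HFD-pre than in CON-pre (median -0.048, beside -0.034 over all genes), and 7 of 8 were lower in HFD-post than in CON-post (median -0.085, beside 0.0038).

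Atf4, the transcription factor at the centre of the response, had the lowest p of the members for diet at rest and for diet averaged over both exercise states. It also had the lowest for exercise on the high-fat diet and for exercise averaged over both diets. Its level was 90.1, 86.3, 91.4 and 94.0 FPKM in CON-pre and 84.4, 70.7, 76.2 and 79.1 FPKM in HFD-pre. After exercise it was 89.2, 99.5, 97.4 and 102 FPKM in CON-post and 81.2, 92.9, 86.9 and 95.6 FPKM in HFD-post. Every HFD-pre library lay below every CON-pre library, while the groups of the other 3 comparisons overlapped. The fitted level in HFD-pre was 0.857 times that in CON-pre (95% interval 0.774 to 0.949, log2 fold change -0.22, limma adjusted p = 0.299). Over the 4 and 4 libraries an exact permutation test gave 0.0286, the smallest p it can give. Among all genes, 5.62% had groups that did not overlap in this comparison, and Atf4 was 1 of 8 members that did so. HFD-post was 1.15 times HFD-pre (1.04 to 1.27, limma adjusted p = 0.268), and CON-post was 1.07 times CON-pre (0.968 to 1.19, limma adjusted p = 0.645). In this fit the upper 95% limit for a rise of Atf4 mRNA at 3 h was thus 1.19-fold on the control diet and 1.27-fold on the high-fat diet. Averaged over exercise states, Atf4 was at 0.887 times its control-diet level (0.826 to 0.953, limma adjusted p = 0.143). Over the alternatives that adjusted p ran from 0.0307, under upper-quartile scaling, to 0.255. Averaged over diets, Atf4 was at 1.11 times its pre-exercise level (1.03 to 1.19, limma adjusted p = 0.103). The summed muscle fibre markers were also lower in HFD-pre than in CON-pre, as given above, and their part in the Atf4 difference was not tested.

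Atf5, a related transcription factor also controlled at translation, showed no difference beyond the spread of the libraries. It was 15.3, 14.7, 21.0 and 21.9 FPKM in CON-pre and 16.9, 12.9, 16.6 and 16.6 FPKM in HFD-pre. In CON-post it was 17.5, 23.4, 20.6 and 17.1 FPKM, and in HFD-post 22.3, 18.0, 14.3 and 15.4 FPKM. The groups compared overlapped, and the fitted ratios ran from 0.877 in HFD-pre against CON-pre (0.697 to 1.10) to 1.10 in HFD-post against HFD-pre (0.872 to 1.38), with limma adjusted p of 0.791 or more in the 4 comparisons.

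Ddit3 encodes CHOP, a factor induced by ATF4 and linked to cell death when stress persists. Its level was 6.46, 6.76, 8.93 and 7.45 FPKM in CON-pre and 7.77, 5.94, 6.46 and 10.5 FPKM in HFD-pre. It was 8.62, 9.62, 13.4 and 7.58 FPKM in CON-post and 8.38, 7.95, 13.2 and 8.52 FPKM in HFD-post. A single library stood highest in each exercised group, replicate 3 in both, and the groups compared overlapped. Averaged over diets, the post-exercise level was 1.26 times the pre-exercise level (1.03 to 1.53, limma unadjusted p = 0.0284, adjusted p = 0.209). The diet ratios were 1.02 before exercise (0.768 to 1.35) and 0.973 after it (0.733 to 1.29). In RefSeq the Ddit3 gene overlaps Mars1, named Mars in the table, whose level was near 17.0 FPKM in CON-pre and which rose after exercise in the averaged contrast. The libraries kept strand, but whether the counting used it is not given in the sources used here, and the part of Mars reads in the Ddit3 value was not tested. Atf5 likewise overlaps Nup62 and Il4i1b, and Ppp1r15a overlaps Tulp2.

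Ppp1r15a, which encodes GADD34, the regulatory subunit that directs a phosphatase to eIF2 and so ends the response, was highest in exercised control-diet muscle. It was 11.4, 8.36, 11.5 and 12.1 FPKM in CON-pre and 12.5, 16.9, 18.4 and 12.4 FPKM in CON-post. In HFD-pre it was 10.2, 9.59, 9.94 and 10.1 FPKM, and in HFD-post 9.54, 11.7, 8.49 and 14.2 FPKM. Every CON-post library lay above every CON-pre library, by a narrow margin for replicates 1 and 4, whereas HFD-post lay on both sides of HFD-pre. The CON-post level was 1.36 times CON-pre (1.08 to 1.72, log2 fold change 0.45, limma adjusted p = 0.241, exact permutation p = 0.0286), where 5.82% of all genes did not overlap. HFD-post was 1.08 times HFD-pre (0.860 to 1.36, limma adjusted p = 0.831), and 0.738 times CON-post (0.587 to 0.928, limma adjusted p = 0.54), with HFD-post replicate 4 inside the CON-post range. The test of the difference between the exercise responses of the diets, the interaction, gave a log2 value of -0.34 (-0.80 to 0.13, limma unadjusted p = 0.148, adjusted p = 1), so the responses were not shown to differ. HFD-pre was the least variable group for this gene, with a coefficient of variation of 2.59%, beside 15.5% in CON-pre, 20.3% in CON-post and 23.2% in HFD-post.

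**Figure D2:**
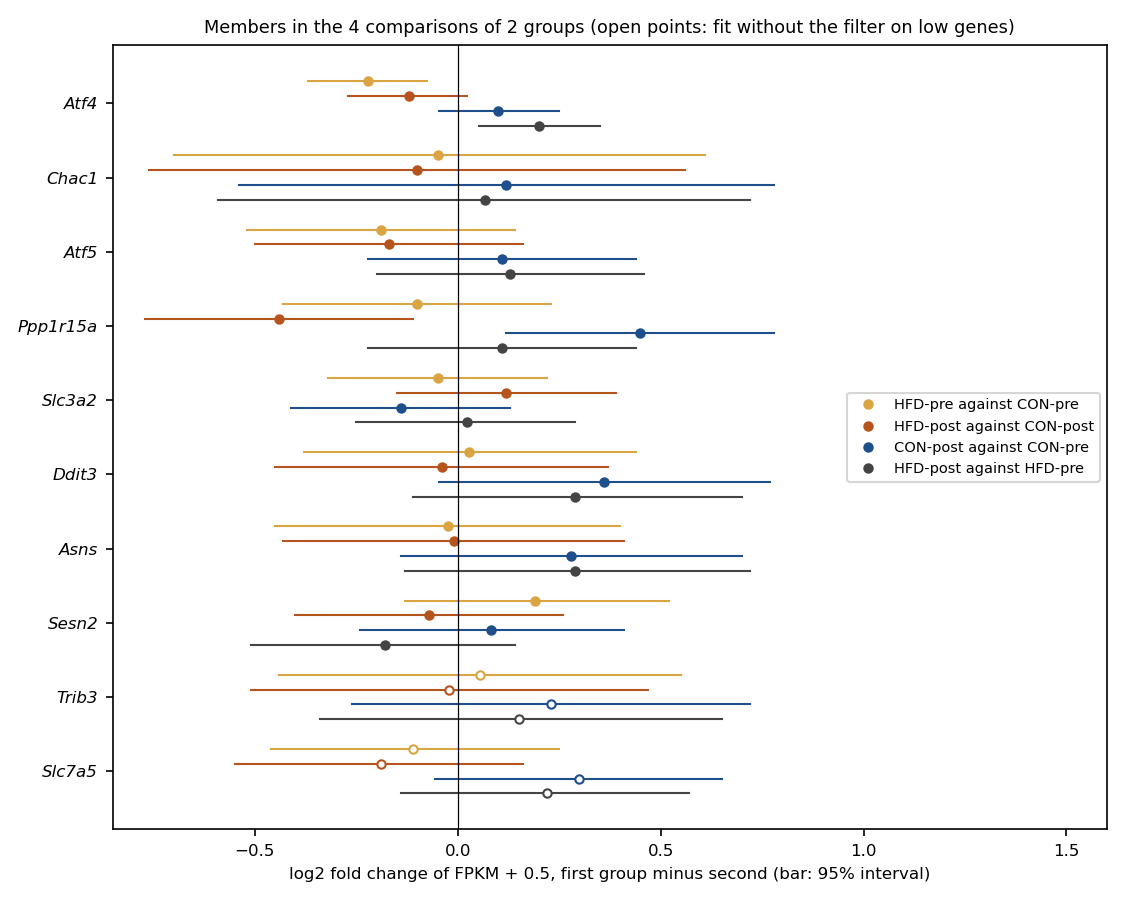
Log2 fold change of FPKM + 0.5 for each member (rows) in the 4 comparisons of 2 groups, with 95% intervals from the limma fit and open points for Trib3 and Slc7a5, fitted without the filter on low genes. Intervals that leave out 0 belong to Atf4 (-0.22 in HFD-pre against CON-pre, 0.20 in HFD-post against HFD-pre) and Ppp1r15a (0.45 in CON-post against CON-pre, -0.44 in HFD-post against CON-post), and the widest to Chac1.

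Chac1, a glutathione-degrading enzyme induced by ATF4, was abundant in muscle and the most variable of the well-expressed members. It was 61.5, 25.5, 70.4 and 42.1 FPKM in CON-pre and 39.2, 57.8, 59.7 and 30.1 FPKM in HFD-pre. After exercise it was 49.8, 48.9, 49.7 and 53.9 FPKM in CON-post and 76.6, 58.2, 31.5 and 35.0 FPKM in HFD-post. The 4 CON-post libraries were nearly alike, with a coefficient of variation of 4.49%, while the other groups varied by 30.9% to 42.0% around means of 46.7 to 50.3 FPKM. Whether the spread itself differed between groups was not tested. The ratio of CON-post to CON-pre was 1.09 with an interval from 0.690 to 1.71, so changes within those bounds were not excluded. The other ratios were 0.967 in HFD-pre against CON-pre (0.614 to 1.52), 1.05 in HFD-post against HFD-pre (0.665 to 1.65) and 0.933 in HFD-post against CON-post (0.592 to 1.47), with limma adjusted p of 0.928 or more in all 4.

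Asns encodes asparagine synthetase, a classical target of amino acid shortage. It was 0.728, 0.476, 0.506 and 0.911 FPKM in CON-pre and 0.825, 0.736, 0.477 and 0.498 FPKM in HFD-pre. It was 0.992, 1.04, 0.469 and 1.16 FPKM in CON-post and 0.533, 0.856, 0.919 and 1.31 FPKM in HFD-post. Within each exercised group 3 of 4 libraries lay above the group mean of their pre-exercise counterparts and 1 lay below it. The averaged exercise ratio was 1.22 (0.992 to 1.50, limma adjusted p = 0.292). At a level this low, the pseudocount of 0.5 shrinks every ratio toward 1.

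Sesn2 encodes sestrin 2, a stress-induced brake on the growth kinase mTORC1. Its level was 0.591, 0.391, 0.476 and 0.753 FPKM in CON-pre and 0.677, 0.725, 0.672 and 0.703 FPKM in HFD-pre. It was 0.662, 0.962, 0.330 and 0.558 FPKM in CON-post and 0.604, 0.523, 0.599 and 0.487 FPKM in HFD-post. All HFD-post libraries lay below all HFD-pre libraries, in a comparison where 6.81% of all genes did not overlap. The fitted ratio was 0.881 (0.703 to 1.11, log2 fold change -0.18, limma adjusted p = 0.693, exact permutation p = 0.0286). The high-fat groups were tight, with coefficients of variation of 3.55% and 10.4%, beside 28.3% and 41.7% in the control-diet groups, and limma drew its error from all groups. No member was without overlap in HFD-post against CON-post, where 3.16% of all genes were.

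Trib3, a pseudokinase that feeds back on ATF4 and CHOP, was too low for the filtered fit. It was 0.105, 0.370, 0.368 and 0.662 FPKM in CON-pre and 0.513, 0.137, 0.445 and 0.511 FPKM in HFD-pre. It was 0.546, 0.814, 0.625 and 0.148 FPKM in CON-post and 0.548, 0.639, 0.462 and 0.323 FPKM in HFD-post. Each of the first 3 groups held 1 library far below its others, and the groups compared overlapped. Without the filter, the ratio of CON-post to CON-pre was 1.17 (0.833 to 1.65, limma adjusted p = 0.818), and those of the other comparisons lay between 0.986 and 1.11.

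Slc7a5 and Slc3a2 encode the light and heavy chains of a transporter that takes leucine and other large neutral amino acids into the cell. Slc7a5 was 0.380, 0.248, 0.412 and 0.533 FPKM in CON-pre and 0.251, 0.268, 0.391 and 0.392 FPKM in HFD-pre. It was 0.709, 0.343, 0.700 and 0.663 FPKM in CON-post and 0.394, 0.867, 0.370 and 0.289 FPKM in HFD-post. In CON-post 3 of 4 libraries lay above every pre-exercise library, while in HFD-post only replicate 2 did. Without the filter, the CON-post ratio was 1.23 (0.962 to 1.57, limma adjusted p = 0.621), the HFD-post to HFD-pre ratio 1.16 (0.909 to 1.49, adjusted p = 0.717) and the averaged exercise ratio 1.20 (1.01 to 1.42, unadjusted p = 0.0442, adjusted p = 0.331).

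Slc3a2, whose product also serves other light chains, was much the more abundant of the pair. It was 8.17, 9.01, 10.4 and 8.67 FPKM in CON-pre and 9.13, 10.5, 8.92 and 6.69 FPKM in HFD-pre. It was 8.42, 7.88, 7.31 and 8.96 FPKM in CON-post and 7.34, 8.93, 8.63 and 10.8 FPKM in HFD-post. The groups compared overlapped, and the CON-post to CON-pre ratio was 0.906 (0.751 to 1.09, limma adjusted p = 0.743). The level of Slc7a5 as a percent of Slc3a2 was 4.38 ± 1.42 (SD, n = 4) in CON-pre and 3.89 ± 1.55 in HFD-pre, with 7.44 ± 2.24 in CON-post beside 5.51 ± 3.01 in HFD-post. The log2 ratio of the chains differed by 0.76 between CON-post and CON-pre, for which the exact permutation test gave p = 0.0857, or 0.343 adjusted over the 4 comparisons made.

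The genes whose profile over the 16 libraries was most like a member's are given as a description, since the libraries share groups and scaling. For Atf4 they were Neu1 and Rprd1a (Pearson r = 0.87 each) and Retn (0.86). Nos1 (0.83), Med13l (0.81) and Flcn (0.80) were nearest to Ppp1r15a. Pqlc1 (0.85) and Gm5643 (0.83) were among the nearest to Ddit3.

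While the 10 members did not pass the test, some genes of 8 lists written around the pathway passed it and rose after exercise. All 7 adipocyte markers and 3 of 5 endothelial markers were also at higher values in the averaged exercise contrast, as given above, and the part of other cell types in these rises was not tested. The lists were chosen with earlier results of these data known, so their counts are only a description. Members and lists were not tested against each other. Of 130 further genes in 8 lists of pathway genes, 129 were in the table and 113 were tested. In CON-post against CON-pre, 6 rose and 1 fell, where 1.11% of all genes were called. In HFD-post against HFD-pre, 5 rose and none fell, where 0.542% of all genes were called. Averaged over diets, 10 rose and 1 fell, where 3.86% of all genes were called, and the 113 genes had a median log2 fold change of 0.051. The 2 diet comparisons and the averaged diet contrast gave 0 calls by limma. At an unadjusted p under 0.05 they held 9 of the 113 genes in HFD-pre against CON-pre (8.25% of all genes), 9 in HFD-post against CON-post (6.29%) and 17 in the averaged diet contrast (10.4%). The interaction gave 0, with 2 of the 113 genes at that level, beside 3.16% of all genes. They were Oma1 (log2 value -0.28, limma unadjusted p = 0.0123) and Gadd45a (-0.37, unadjusted p = 0.0485).

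**Figure D3:**
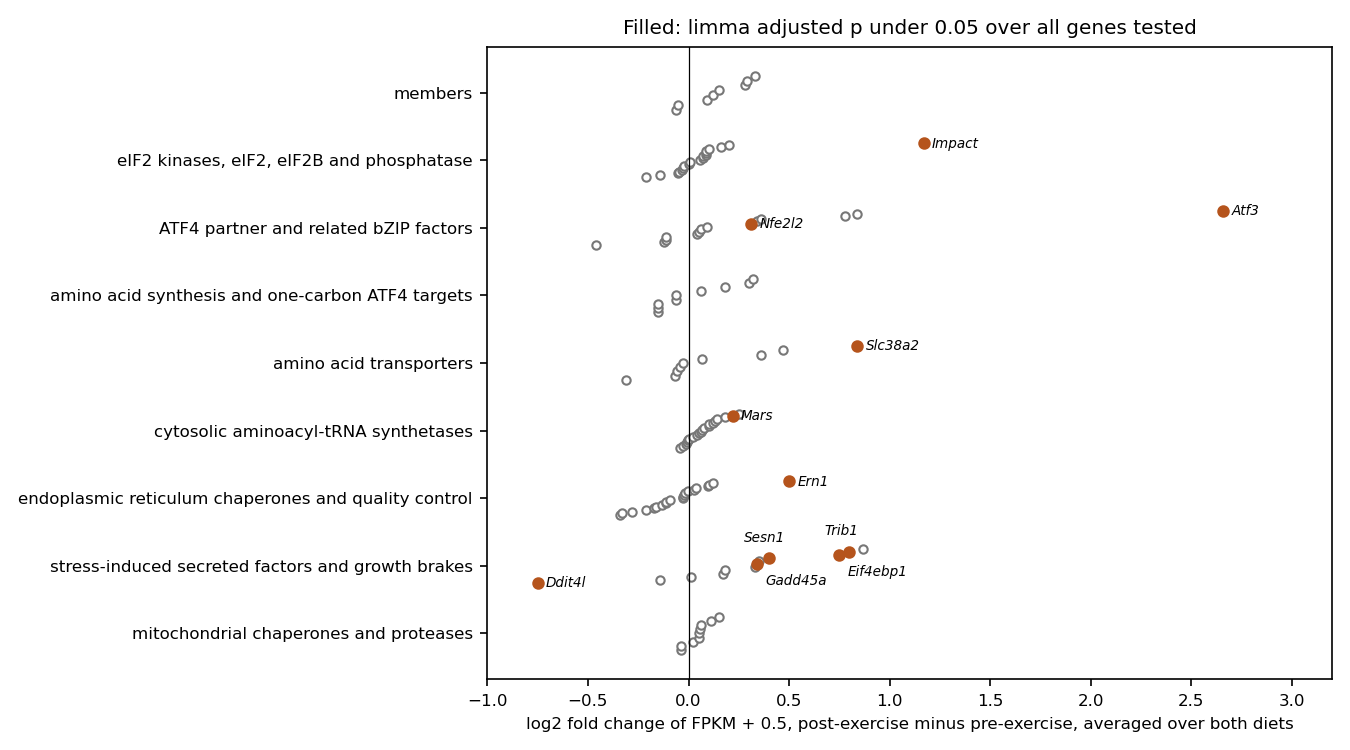
Log2 fold change of FPKM + 0.5 after exercise, averaged over both diets, for the 8 tested members (top row) and the 113 other tested genes by list, one point a gene, filled where the limma adjusted p was under 0.05. The members lie between -0.060 and 0.33 with none filled, and the largest filled value is that of Atf3 at 2.66.

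Atf3, a stress-induced transcription factor and a target of ATF4 as well as of other pathways, rose most. It was 3.65, 5.87, 4.76 and 2.41 FPKM in CON-pre and 37.8, 37.9, 59.3 and 23.1 FPKM in CON-post. In HFD-pre it was 3.94, 5.08, 4.17 and 9.54 FPKM, and in HFD-post 14.7, 45.9, 26.8 and 29.9 FPKM. No exercised library overlapped a pre-exercise library on either diet. The log2 fold change was 3.08 on the control diet (95% interval 2.34 to 3.82, limma adjusted p = 1.06e-04) and 2.24 on the high-fat diet (1.51 to 2.98, adjusted p = 0.00556). The interaction was -0.84 (-1.88 to 0.21, limma adjusted p = 1), so the rises were not shown to differ in size. Among the 14 tested ATF4 partners and related bZIP factors, Nfe2l2, the master regulator of antioxidant genes, was the other one called, in the averaged contrast only (log2 fold change 0.31, limma adjusted p = 0.0206, or up to 0.0682 among the alternatives, with the call lost without CON-pre replicate 1 and under median-of-ratios, quantile and upper-quartile scaling).

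Among 9 tested amino acid transporters, Slc38a2 alone was called. Slc38a2 encodes SNAT2, a carrier of small neutral amino acids that cells raise when amino acids are short. It was 22.9, 20.9, 23.3 and 22.9 FPKM in CON-pre and 48.7, 51.3, 50.9 and 33.5 FPKM in CON-post. In HFD-pre it was 30.6, 23.9, 26.4 and 24.1 FPKM, and in HFD-post 37.0, 47.8, 43.9 and 39.7 FPKM. Exercised and unexercised libraries did not overlap on either diet, with log2 fold changes of 1.00 (0.74 to 1.26, limma adjusted p = 3.07e-04) and 0.67 (0.41 to 0.93, adjusted p = 0.0213). The high-fat call was lost when HFD-post replicate 2 or 3 or HFD-pre replicate 2, 3 or 4 was left out, with adjusted p up to 0.0915. Averaged over diets, Slc38a2 rose by a log2 value of 0.84 (limma adjusted p = 3.26e-05), and the transporter chain Slc3a2, one of the 10 members, had a log2 value of -0.060 (-0.25 to 0.13).

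Of 19 tested genes for the eIF2 kinases, eIF2, its exchange factor and its phosphatase, Impact alone was called. Impact encodes an inhibitor of the kinase GCN2, which senses uncharged tRNA. It was 5.14, 4.45, 5.22 and 4.29 FPKM in CON-pre and 12.9, 10.6, 17.9 and 9.28 FPKM in CON-post. In HFD-pre it was 4.15, 4.68, 3.99 and 5.26 FPKM, and in HFD-post 6.44, 14.7, 11.7 and 8.70 FPKM. All exercised libraries lay above all pre-exercise libraries, with log2 fold changes of 1.28 (0.84 to 1.73, limma adjusted p = 0.00366) and 1.06 (0.62 to 1.51, adjusted p = 0.0299). On the high-fat diet the call was lost without HFD-post replicate 2, 3 or 4 or HFD-pre replicate 1, 2 or 3. It was also lost with no filter, with only those groups fitted and with the replicate number as a block (limma adjusted p = 0.053), and over all alternatives the adjusted p of Impact reached 0.11.

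**Figure D4:**
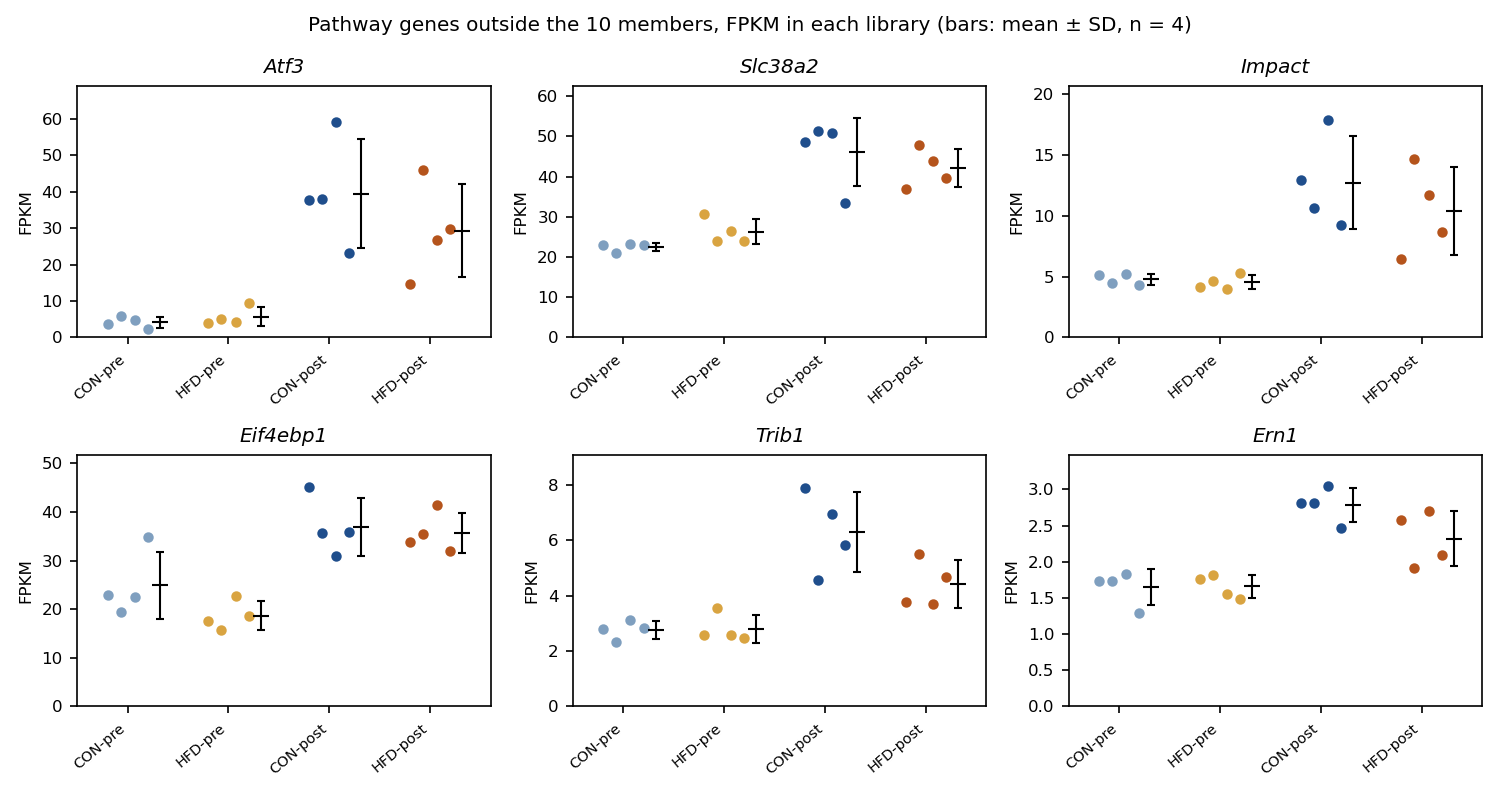
FPKM of 6 pathway genes outside the 10 members in the 4 libraries of each group, with black bars for mean ± SD and vertical axes starting at 0. Atf3, Slc38a2, Impact, Trib1 and Ern1 show no overlap between pre- and post-exercise libraries on either diet, while for Eif4ebp1 the CON-pre library at 34.9 reaches into the CON-post range of 30.9 to 45.1.

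The list of stress-induced secreted factors and growth brakes held most of the remaining calls, in both directions. Trib1, a pseudokinase related to Trib3, was 2.77 ± 0.325 FPKM (SD, n = 4) in CON-pre and 6.31 ± 1.44 in CON-post (log2 fold change 1.04, limma adjusted p = 0.00179), and 2.80 ± 0.507 in HFD-pre and 4.42 ± 0.852 in HFD-post (0.57, adjusted p = 0.14). Eif4ebp1, an ATF4 target that holds back cap-dependent translation, rose on the high-fat diet from 18.7 ± 2.93 to 35.7 ± 4.06 FPKM (0.92, limma adjusted p = 0.0133). Its values on the control diet were 24.9 ± 6.81 and 36.9 ± 5.93 FPKM (0.58, adjusted p = 0.109). The high-fat call of Eif4ebp1 was lost without HFD-post replicate 2 or 3 or HFD-pre replicate 1 or 2, with adjusted p up to 0.0598. Ddit4l, a muscle-enriched inhibitor of mTORC1 signalling, moved the other way and fell on the control diet from 68.7 ± 11.2 to 36.9 ± 1.19 FPKM (-0.87, limma adjusted p = 0.00779), with 55.4 ± 6.31 and 36.5 ± 11.4 FPKM on the high-fat diet (-0.63, adjusted p = 0.108). Gadd45a, a growth arrest gene, was 12.8 ± 0.932 FPKM in CON-pre and 19.0 ± 3.80 in CON-post (0.53, limma adjusted p = 0.0455), but the call was lost in 12 of the 16 fits that each left out 1 library. It was also lost under median-of-ratios, quantile and upper-quartile scaling, and over all alternatives the adjusted p reached 0.189. In the averaged contrast Trib1 (0.80), Eif4ebp1 (0.75) and Ddit4l (-0.75) were called in every alternative. Gadd45a (0.34, limma adjusted p = 0.0335) and Sesn1 (0.40, adjusted p = 0.0399), a relative of Sesn2, were also called there, but each lost the call in 10 of the 16 fits that left out 1 library and under the same scalings. The interaction of none of these 5 genes was called by limma.

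Endoplasmic reticulum chaperones, which rise when unfolded protein drives the response, were mostly at slightly lower values after exercise. Of 21 tested genes, 15 were lower and 6 higher in the averaged contrast (median log2 fold change -0.028, beside 0.014 over all genes), and 1 was called. That gene was Ern1, which encodes the stress sensor IRE1 and not a chaperone, with 1.65 ± 0.246 FPKM in CON-pre and 2.78 ± 0.234 in CON-post (0.61, limma adjusted p = 0.00878), and 1.66 ± 0.156 in HFD-pre and 2.32 ± 0.375 in HFD-post (0.38, adjusted p = 0.183). The lowest p by diet belonged to Sdf2l1, a chaperone cofactor, at -0.87 in HFD-pre against CON-pre (limma adjusted p = 0.291).

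The 20 cytosolic aminoacyl-tRNA synthetases, many of which ATF4 is known to induce, had small fold changes. In HFD-pre 19 of 20 were lower than in CON-pre (median log2 fold change -0.078), as were 6786 of all 11256 genes tested (median -0.034), with 0 called by limma and 2 at an unadjusted p under 0.05, Yars (-0.23) and Farsb (-0.16), beside 8.25% of all genes. In HFD-post 18 of 20 were higher than in HFD-pre (median 0.081), as were 6671 of all genes (median 0.035), in a comparison that shares the HFD-pre libraries with the former. In CON-post against CON-pre, 13 of 20 were higher and 7 lower (median 0.041), beside 5442 higher of all genes (median -0.0058). Averaged over exercise states, 18 of 20 were lower with the high-fat diet (median -0.054), as were 6370 of all genes (median -0.017). Of the 20, 0 were called by limma and 6 had an unadjusted p under 0.05, all lower, beside 10.4% of all genes. Averaged over diets, 15 of 20 were higher after exercise (median 0.066), as were 6047 of all genes (median 0.014). Of the 20, 1 was called and 5 had an unadjusted p under 0.05, beside 18.5% of all genes. Mars, the methionyl-tRNA synthetase, was called in HFD-post against HFD-pre at 0.30 (limma adjusted p = 0.0485), a call lost in 15 of the 16 fits that left out 1 library. Averaged over diets Mars rose by a log2 value of 0.22 (adjusted p = 0.0126) and kept the call in every alternative. Its group means were 17.0 ± 1.03 FPKM in CON-pre, 18.8 ± 0.904 in CON-post, 16.5 ± 0.688 in HFD-pre and 20.5 ± 1.15 in HFD-post (SD, n = 4).

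The last lists gave no call in any contrast. Among 9 tested genes of amino acid synthesis and one-carbon metabolism, limma called 0 after exercise in the averaged contrast and 2 had an unadjusted p under 0.05, Gpt2 (log2 fold change 0.30, adjusted p = 0.0561) and Got1 (0.18, adjusted p = 0.13), both transaminases, beside 18.5% of all genes. By diet the lowest p in that list was that of Aldh18a1, which begins proline synthesis, at -0.47 averaged over exercise states (limma adjusted p = 0.128). Among 9 mitochondrial chaperones and proteases, limma called 0 and 0 had an unadjusted p under 0.05 in the averaged exercise contrast, where Clpp was at 0.15 (adjusted p = 0.287) and Lonp1 at 0.11 (adjusted p = 0.351).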

How the data were processed

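RNA of 16 quadriceps libraries, 4 in each group, was prepared with a stranded kit. The authors deposited 1 table of FPKM values per gene and library. Per the submitters' processing notes these were made with FastQC, TopHat and Cufflinks against mm9. The supplement of the paper prints positions for named genes, of which 692 could be compared with both builds. Of these, 692 overlapped the gene of that name in GRCm38 and 114 in mm9, so positions here are given in GRCm38.p6 from RefSeq. Of 24487 entries, 27 with date-like names (0.0771% of all FPKM) were left out, and 260 symbols with several entries were summed, none a member. FPKM values are not counts, so limma 3.58.1 (R 4.3.3) with a mean-variance trend was fitted on log2(FPKM + 0.5) where the mean over all libraries reached 0.5 FPKM, with 1 mean per group and Benjamini-Hochberg adjustment over all genes tested. Fold changes are on that scale and understate those of low genes. Single values were also compared by two-sided exact permutation tests over libraries, which with 4 against 4 cannot go below 0.0286. Labels give 4 libraries per group and no batch. Nothing in the labels states that libraries came from separate animals, and p-values then measure the spread between libraries.

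The members, the 8 pathway lists and the 5 marker lists were chosen with earlier results of these data known. All members were named, and from the pathway lists each gene with an adjusted p under 0.05 in any contrast or, where a list had none, up to 2 with the lowest p. Likeness was given for the 3 members with the lowest p, with 3 genes each, of which 1 is not reported here. The alternatives were other scalings, filters, pseudocounts, weights and thresholds, a replicate block, only the groups compared, and leaving out each library. Those for the pathway genes were added after seeing the data. The fit was tested on simulated data. Python 3.11.15, pandas 2.3.3, scipy 1.17.1 and matplotlib 3.10.9 were used.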

Additional observations from a re-analysis of the deposited data

Results flagged for a closer look

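In 84 sets of 4 libraries (a gene in a group), the highest or lowest library was compared with its neighbours by Dixon's ratio at 95%, which marks about 1 set in 20 by chance, and 9 sets were marked. Among the members these were Atf5 in HFD-pre replicate 2 (12.9 FPKM, the others 16.6 to 16.9), Ddit3 in HFD-post replicate 3 (13.2 FPKM, the others 7.95 to 8.52) and Slc7a5 in CON-post replicate 2 (0.343 FPKM, the others 0.663 to 0.709). Among the other pathway genes, Slc38a2 was low in CON-pre replicate 2 (20.9 FPKM, the others 22.9 to 23.3) and in CON-post replicate 4 (33.5 FPKM, the others 48.7 to 51.3). Ern1 was low in CON-pre replicate 4 (1.29 FPKM, the others 1.74 to 1.83) and Gadd45a was high in the same library (14.2 FPKM, the others 12.2 to 12.5). Sesn1 was high in CON-post replicate 1 (16.3 FPKM, the others 11.2 to 12.1), and Trib1 was high in HFD-pre replicate 2 (3.55 FPKM, the others 2.47 to 2.59).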

How the results depend on the processing

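Across 14 alternatives and 16 fits that each left out 1 library, the count of members called stayed at 0 in all 7 contrasts, except for diet averaged over both exercise states under upper-quartile scaling, where 1 member, Atf4, was called (adjusted p = 0.0307, range over alternatives 0.0307 to 0.255), and except at an unadjusted p under 0.05. That threshold gave 1 member in each comparison of 2 groups, 3 for exercise and 2 for diet averaged, and for the other pathway genes 9 in HFD-pre and 17 in CON-post set against CON-pre, 22 and 9 in HFD-post set against HFD-pre and CON-post, 35 and 17 for exercise and diet averaged, and 2 for the interaction. Of 1530 member values, 99 changed sign under some alternative, none of them called. The count of other pathway genes in HFD-post against HFD-pre went from 5 to 3 with only those groups fitted and from 1 to 5 when a library was left out (1 without HFD-post replicate 2 or HFD-pre replicate 2). It went from 0 to 1 in HFD-post against CON-post without CON-post replicate 3. For diet averaged it was 0 to 1 when a library was left out, and 1 under array weights, a filter of 1 FPKM, median-of-ratios, quantile and upper-quartile scaling and an adjusted p under 0.1. The cause of these shifts was not tested.

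With the replicate number as a block, 0 members were called in any contrast, and 6, 4 and 10 other pathway genes for exercise on the control diet, on the high-fat diet and averaged. The block ended the calls of Impact and Mars on the high-fat diet, of Gadd45a on the control diet, and of Gadd45a and Sesn1 averaged. On the high-fat diet and averaged, the counts also held a gene called only with the block, not named here. The numbers did not pair the libraries: over 24 pairs with the same number the correlation of deviations ran from -0.22 to 0.21, 5 were over 0.1, and 3 of 16 libraries were closest to another of their own number.

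With 4 libraries a group, the intervals given for Chac1, Trib3 and Slc7a5 reach 1.57-fold or more, and the levels of Asns, Sesn2, Trib3 and Slc7a5 lie near the filter.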
